A study of Rattus norvegicus with 56 samples.

Results

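Bdnf, Ntf3, Gdnf, Cntf, Ntrk2, Ntrk3, Ngfr and Vgf are the genes described here: 4 trophic factors, 3 receptors and the neurotrophin-induced secretory protein Vgf. They were taken as every non-control array probe whose transcript accession maps through RefSeq to one of these 8 rat symbols, out of 16581 symbols that had a probe. All 8 had at least 1 probe, and together they had 16 (5 for Ntrk2, 3 for Ntrk3, 2 each for Gdnf and Vgf, and 1 each for the others). The RNA came from the hippocampus and the parietal cortex of 24 male Long-Evans rats, collected 48 h after a session of intermittent theta-burst stimulation (iTBS), in which magnetic pulses are given over the head in short repeated bursts, or after sham, in which the coil was held away from the head. Y animals were young, at 6 to 7 months, and the remaining animals were 26 to 27 months of age and labelled unimpaired (AU) or impaired (AI). The study's methods describe such a split, by water maze performance, for the animals of its hippocampal slice experiment. For the present experiment they name fewer aged animals than the labels do. The groups were Y_Sham (4 rats), Y_iTBS (4), AU_Sham (4), AU_iTBS (5), AI_Sham (4) and AI_iTBS (3). Sham animals shared with the stimulated animals the light isoflurane anaesthesia, the intramuscular dexmedetomidine and the Antisedan that reversed it, so no group was free of sedation.

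Neurotrophins are secreted dimers that act on neurons through Trk receptor tyrosine kinases and through the p75 neurotrophin receptor, a member of the tumour necrosis factor receptor family. BDNF binds TrkB (Ntrk2), NT-3 (Ntf3) binds mainly TrkC (Ntrk3), and all neurotrophins bind p75 (Ngfr); Trk signalling runs through the MAP kinase, PI3 kinase and phospholipase C pathways. GDNF and CNTF belong to other ligand families, GDNF signalling through Ret with a GFRα co-receptor and CNTF through a gp130 complex. In the adult hippocampus BDNF is known for its part in synaptic plasticity, and NT-3 mRNA is known to be made by dentate granule cells. Vgf encodes a precursor of secreted peptides and is known as a gene that neurotrophins induce.

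The promoters of Bdnf and Vgf are shown because both genes are well-known targets of CREB, the cAMP-responsive transcription factor, whereas their region differences, given further on, ran in opposite directions. The sequences are the 250 bases before a transcription start (RefSeq, rat build GRCr8), 5′ to 3′ on the gene's strand. Capitals mark the letters TGACG or CGTCA (the core of the cAMP response element on either strand) or the full palindrome TGACGTCA, which contains both.
Bdnf, chr3:116637608-116637857, plus strand: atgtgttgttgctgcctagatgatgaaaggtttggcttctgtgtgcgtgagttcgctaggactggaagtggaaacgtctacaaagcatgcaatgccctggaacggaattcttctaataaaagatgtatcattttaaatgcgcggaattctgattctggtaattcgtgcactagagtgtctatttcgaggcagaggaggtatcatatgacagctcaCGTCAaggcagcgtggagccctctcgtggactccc
Vgf, chr12:25277021-25277270, minus strand: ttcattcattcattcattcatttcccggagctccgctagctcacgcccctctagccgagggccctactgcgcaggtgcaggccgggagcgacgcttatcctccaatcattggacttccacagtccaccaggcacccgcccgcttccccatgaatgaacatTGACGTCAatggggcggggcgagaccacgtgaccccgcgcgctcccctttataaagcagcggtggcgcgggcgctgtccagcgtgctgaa
The CGTCA within the full palindrome lay 87 bases before the Vgf start, and 531 of 33469 windows of this length (1.59%) held the palindrome. The core alone lay 35 bases before 1 of the 6 Bdnf starts listed and 49 bases before the Gdnf start, and 6097 windows (18.2%) held the core. The other 5 Bdnf windows, the 3 Ntf3 windows and the Cntf window held neither set of letters. Ntrk2, Ntrk3 and Ngfr had no entry in the promoter table.

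Values are normalized log2 signals, on a scale where 0 is an array's mean over all its probes, so that a level of one probe is not set against that of another. A probe was tested if 3 or more animals had it well above background, a gene was represented by its probe of highest mean signal, and "called" means an adjusted p under 0.05 from limma with Benjamini-Hochberg adjustment over all probes tested. On each array 59.3 to 69.7% of probes were well above background. The brain region of the samples was checked on marker genes. Of 7 tested hippocampal markers, 6 were called higher in hippocampus (C1ql2 by 4.60, Fibcd1 by 4.29 on the log2 scale). Of 8 cortical markers, 6 were called higher in cortex (Lamp5 at -1.88 for hippocampus minus cortex) and 1 in hippocampus. Both regions of 16 animals were scanned on the same day, whereas in the other 8 animals scan day and region cannot be told apart. The repeat array labelled AI_iTBS cortex 2 resembled AI_Sham cortex 2 (r = 0.711 over 300 probes) more than its own first array (r = 0.125), and it was left out; the other repeats were averaged with their first arrays. The cortex of Y_Sham 4 stood apart: of 24920 probes well above background in every cortex, 348 lay more than 2 log2 units from the median of the cortices, against at most 123 in any other cortex and 96 in any hippocampus. Without that animal the 8 genes gave the same calls in every comparison, with region differences of 3.58 for Ntf3, 1.12 for Bdnf, 1.22 for Gdnf, 0.55 for Ngfr and -0.50 for Vgf. By median correlation with the other cortices, AU_iTBS 2 was lowest (0.968), followed by Y_Sham 4 (0.971) and AU_iTBS 3 (0.973). Because each sample is a piece of tissue, fewer cells of a type and less RNA per cell cannot be told apart.

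Of the 8 genes, 7 had a representative probe well above background in every animal of both regions. The exception was Gdnf, well above background in all 24 hippocampi and in 7 of 24 cortices. Its other probe (NM_019139) was well above background in 2 hippocampi and 1 cortex and was not tested, which left 15 of the 16 probes. Across the 6 groups the range of the group means differed between genes. In hippocampus Bdnf group means ran from Y_Sham through AU_iTBS, AU_Sham, Y_iTBS and AI_iTBS down to AI_Sham over a range of 0.285, and in cortex they spanned 0.211. No neighbours in either Bdnf order differed by more than both groups' SDs. The range was widest for the representative probes of Gdnf (1.47), Ntf3 (1.38) and Ngfr (1.04) in cortex, and it reached 0.659 for Ntf3, 0.583 for Ngfr and 0.511 for Gdnf in hippocampus. Over all 8 genes and both regions, neighbours differed by more than both SDs in 3 places: Y_Sham over AU_iTBS for Ntf3 in hippocampus, AI_iTBS over AI_Sham for Ntf3 in cortex, and AI_iTBS over AU_Sham for Ntrk2 in cortex. How often such gaps arise over all probes was not counted, so nothing is drawn from these 3.

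**Figure D1:**
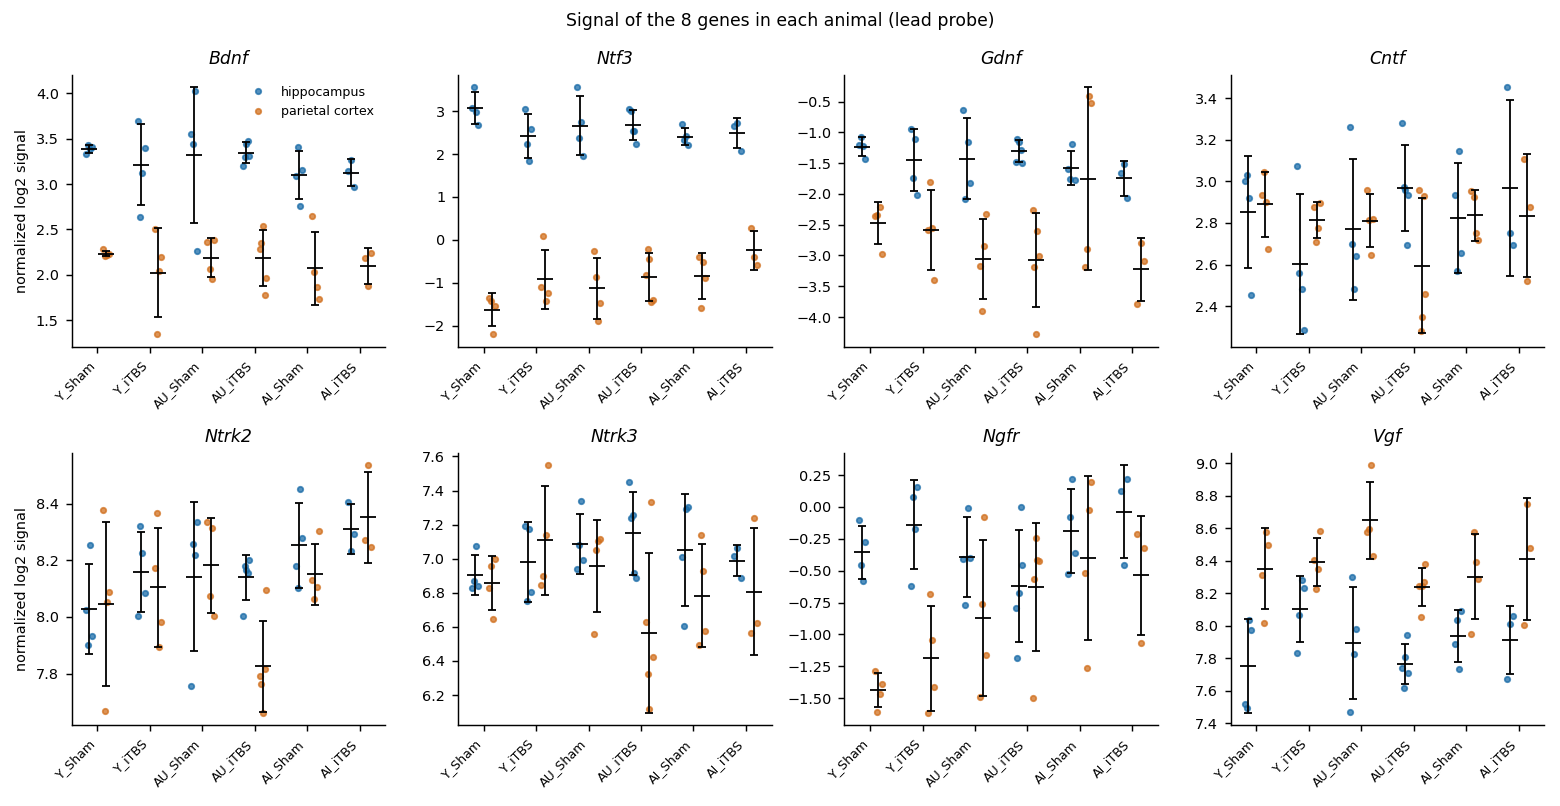
Normalized log2 signal (y axis, 0 = mean of the array's probes) of the representative probe of each gene in the 6 groups (x axis), with 1 point per animal, hippocampus in blue and parietal cortex in orange, and bars at the group mean ± SD. Ntf3 sat between 1.83 and 3.57 in every hippocampus and between -2.20 and 0.27 in every cortex, whereas the 2 regions of Cntf and Ntrk2 lay over each other.

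The question of where these genes are expressed was addressed by the difference between hippocampus and parietal cortex within each animal, taken as the mean of the 6 group differences. By their representative probes, hippocampus was higher for Ntf3, Gdnf, Bdnf and Ngfr and cortex for Vgf, so that 5 of 8 genes were called. Calls were common in this comparison: 49.4% of 33770 probes were called, with hippocampus above cortex for 26.3% and below it for 23.2%. The 8 genes had a median difference of 0.37, against 0.02 over all probes tested. Of their 15 probes, 11 were called.

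Among the ligands, Ntf3 (NM_031073) had the largest difference of the 8 genes. Its signal in hippocampus had a lowest, median and highest value of 1.83, 2.62 and 3.57, and in cortex of -2.20, -0.98 and 0.27 (n = 24 animals). The regions did not overlap, and hippocampus was higher in 24 of 24 animals, with within-animal differences from 2.15 to 5.19. Ntf3 was 3.56 ± 0.11 (SE) log2 units higher in hippocampus, an 11.8-fold difference (95% interval 3.32 to 3.79, adjusted p = 2.81e-16, limma), and 99.8% of probes tested had a lower difference. The mean difference was 4.70 in Y_Sham, 3.34 in Y_iTBS, 3.79 in AU_Sham, 3.53 in AU_iTBS, 3.25 in AI_Sham and 2.73 in AI_iTBS. The size of the Ntf3 difference ranged from 2.74 to 3.91 over the other settings tried, all called.

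Bdnf (NM_012513), the main TrkB ligand, had a lowest, median and highest signal of 2.26, 3.32 and 4.03 in hippocampus and of 1.34, 2.20 and 2.64 in cortex. Hippocampus was higher in 23 of 24 animals, the exception being AU_Sham 4 with 2.26 in hippocampus and 2.38 in cortex, and this hippocampus lay inside the range of the cortices. Bdnf was 1.12 ± 0.09 (SE) log2 units higher in hippocampus (2.17-fold, 95% interval 0.92 to 1.31, adjusted p = 2.76e-09, limma). The group differences were even, at 1.15, 1.19, 1.13, 1.16, 1.03 and 1.03 from Y_Sham, Y_iTBS, AU_Sham, AU_iTBS and AI_Sham to AI_iTBS.

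Gdnf (XM_008760756), a survival factor for dopaminergic and motor neurons, read from -2.09 to -0.64 in hippocampus with a median of -1.46, and from -4.28 to -0.40 in cortex with a median of -2.82. Hippocampus was higher in 22 of 24 animals, and the 2 exceptions were the cortices of AI_Sham 3 (-0.40) and AI_Sham 4 (-0.53). The difference was 1.24 ± 0.17 (SE; 95% interval 0.88 to 1.59, adjusted p = 3.41e-06, limma), with only 7 cortices measured above background. With the cortices at no less than the lowest signal of any probe that counted as well above background, the cortex mean was -2.53 in place of -2.69, against -1.44 in hippocampus. This raised only 6 cortices, and the others not above background kept their measured values, so -2.53 is not an upper bound. With normexp background correction the Gdnf difference was 0.12 and was not called (adjusted p = 0.0926).

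Cntf (NM_013166), a cytokine known from glia and Schwann cells, did not pass the test. It read 2.29 to 3.45 in hippocampus and 2.28 to 3.11 in cortex, hippocampus was higher in 11 of 24 animals, and the difference was 0.03 with a 95% interval of -0.10 to 0.16.

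**Figure D2:**
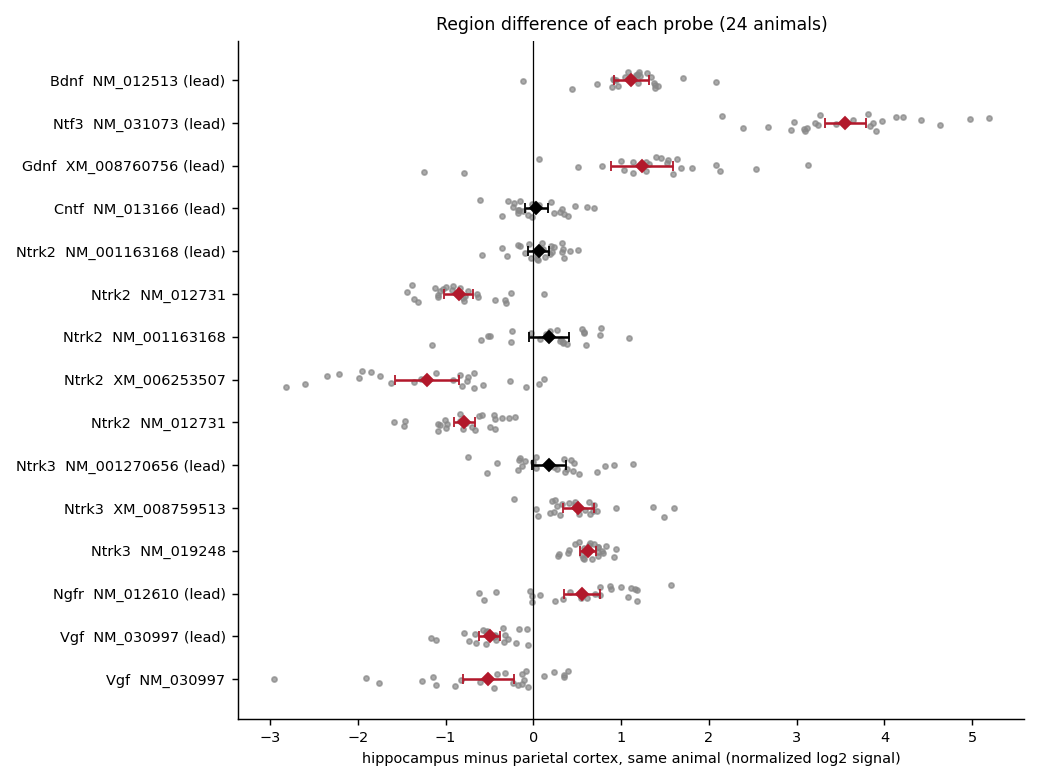
Hippocampus minus parietal cortex in normalized log2 units (x axis) for the 15 tested probes (y axis, gene and transcript accession), with a grey point per animal and a diamond with a bar for the mean and 95% interval, red where called and black where not. The Ntf3 probe lies farthest from 0 at 3.56, and the Ntrk2 probes lie between -1.21 and 0.18.

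Among the receptors, the representative probes of Ntrk2 and Ntrk3 did not pass the test, and other probes of the same genes did. Both genes are known to give a receptor with the kinase domain and shorter forms without it. The probes were designed on different RefSeq transcripts, and which form each probe reads was not determined. For Ntrk2, the representative probe (NM_001163168) read 7.75 to 8.45 in hippocampus and 7.66 to 8.54 in cortex, a difference of 0.06 with a 95% interval of -0.05 to 0.18. The other probe of NM_001163168 differed by 0.18 and was not called either. Both probes of NM_012731 were higher in cortex, by 0.85 ± 0.08 (SE, adjusted p = 1.99e-08, cortex higher in 23 of 24 animals) and by 0.78 ± 0.06 (SE, adjusted p = 2.13e-10, 24 of 24 animals). The Ntrk2 probe of XM_006253507 was higher in cortex by 1.21 ± 0.17 (SE, adjusted p = 5.93e-06, 22 of 24 animals). Thus 3 of 5 Ntrk2 probes were called, all higher in cortex, and the mean of all 5 Ntrk2 probes gave -0.52 (called) where the representative probe gave 0.06.

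The Ntrk3 probes ran the other way. The probe of NM_019248 read 5.65 to 6.37 in hippocampus and 5.03 to 5.63 in cortex, without overlap between the regions, and hippocampus was higher in 24 of 24 animals by 0.62 ± 0.04 (SE, adjusted p = 1.91e-10, limma). The probe of XM_008759513 was 0.51 ± 0.09 (SE) higher in hippocampus (adjusted p = 3.96e-05, 23 of 24 animals). The representative Ntrk3 probe (NM_001270656) differed by 0.18 with a 95% interval of -0.01 to 0.37 (adjusted p = 0.108), and the mean of the 3 Ntrk3 probes differed by 0.44 and was called.

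**Figure D3:**
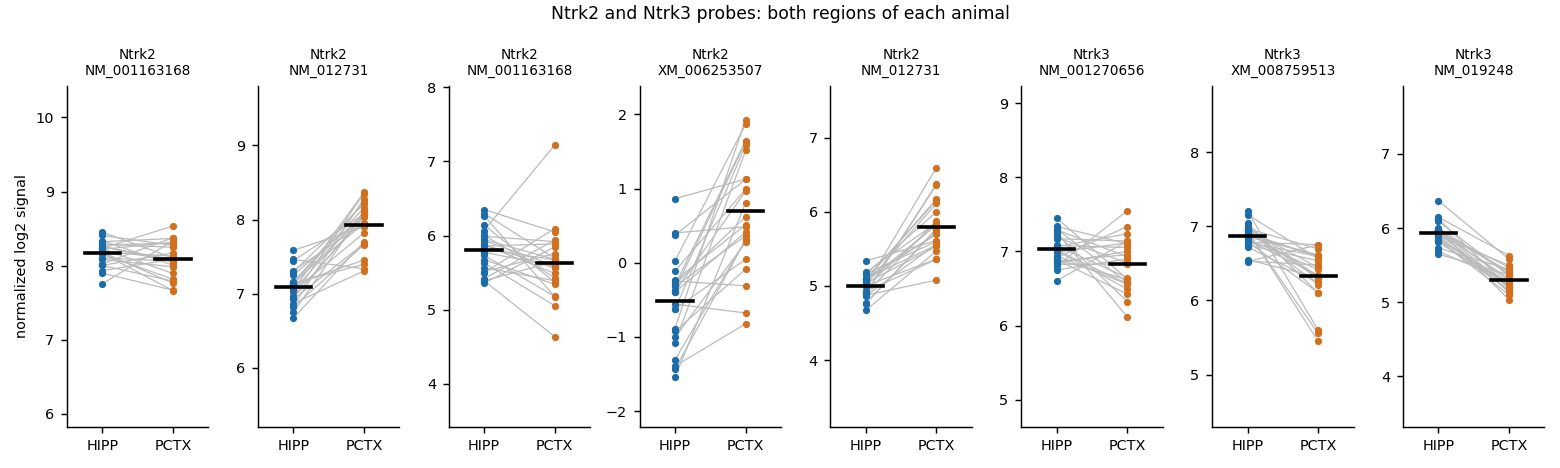
Normalized log2 signal (y axis) of the 5 Ntrk2 probes and the 3 Ntrk3 probes in hippocampus and parietal cortex (x axis), with a line per animal joining its 2 regions and a black bar at the mean of each region. The lines rise towards cortex for both NM_012731 probes and the XM_006253507 probe of Ntrk2, fall for the NM_019248 and XM_008759513 probes of Ntrk3, and show no common slope for the remaining probes.

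Ngfr (NM_012610), the p75 receptor, read -1.19 to 0.22 in hippocampus with a median of -0.38, and -1.61 to 0.19 in cortex with a median of -0.90. The regions overlapped, hippocampus was higher in 18 of 24 animals, and the difference was 0.55 ± 0.10 (SE; 1.47-fold, 95% interval 0.35 to 0.76, adjusted p = 6.88e-05, limma). It varied between groups, with a mean of 1.08 in Y_Sham and 1.05 in Y_iTBS against 0.47 in AU_Sham, 0.01 in AU_iTBS, 0.21 in AI_Sham and 0.50 in AI_iTBS. The Ngfr difference was 0.17 with normexp background correction, and it was not called over the animals of the later scan days alone (adjusted p = 0.0583).

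Vgf (NM_030997) was the one gene of the 8 whose representative probe was called higher in cortex. Its representative probe had a lowest, median and highest signal of 7.47, 7.92 and 8.30 in hippocampus and of 7.95, 8.38 and 8.99 in cortex, and although these ranges overlapped, cortex was higher in 24 of 24 animals. The difference of hippocampus from cortex was -0.50 ± 0.06 (SE; 95% interval -0.61 to -0.38, a 1.41-fold difference, adjusted p = 2.86e-07, limma). The other Vgf probe gave -0.51 ± 0.14 (SE, adjusted p = 0.00497) with cortex higher in 19 of 24 animals. Within the largest scan batch that other probe differed by -0.28 and was not called (adjusted p = 0.163).

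Samples of the 2 regions also differed in markers of other cells. Choroid plexus markers were higher in hippocampus for 5 of 8 genes tested (Ttr by 1.83, Folr1 by 2.27) and in cortex for 1, with a summed level from 5.31 to 11.12 over the hippocampi and from 4.40 to 9.48 over the cortices. Oligodendrocyte markers were higher in hippocampus for 9 of 10 and in cortex for 1. Astrocyte markers were higher in hippocampus for 5 of 10 (Gfap by 1.42, list median 0.16) and microglial markers for 4 of 8. Endothelial and mural markers were higher in cortex for 6 of 8, meningeal and fibroblast markers in cortex for 4 of 8 and in hippocampus for 2, and neuronal markers in cortex for 4 of 8 and in hippocampus for 1. Of all probes 26.3% were called higher in hippocampus and 23.2% in cortex. Their part in the region differences of the 8 genes was not tested.

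The wider pathway was described with a list of 81 genes in 6 roles, of which 75 were tested between the regions. There 21 were called higher in hippocampus and 27 higher in cortex, or 64.0% in all against 49.4% of all probes, with a median difference of -0.05 against 0.02. Over the animals of the later scan days alone, 25 of them were called. The share of all probes called in that setting is not given here, so nothing is drawn from this count. Among the receptors, Ret, the GDNF receptor kinase, was higher in hippocampus by 1.40 in 24 of 24 animals, whereas Gfra2, the co-receptor for neurturin, was -1.93 and lower in hippocampus in all 24. In all, 5 of 14 receptor genes were higher in hippocampus and 6 in cortex.

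Over all probes 49.4% were called, 26.3% higher in hippocampus and 23.2% higher in cortex. By role, the share called was 44.4% for ligands and 40% for transcriptional regulators, both below that of all probes. It was 63.2% for signalling adaptors, 69.2% for processing and secretion and 80% for activity-induced genes. Of 9 other ligand genes, 2 were higher in hippocampus, among them Mdk (0.23), and 2 in cortex: Nrtn (-0.59) and Artn (-0.53), both GDNF-family ligands. Of 13 genes of precursor processing and secretion, 4 were higher in hippocampus, led by the granin Scg2 (1.19, 24 of 24 animals) and by plasminogen, Plg (0.68). A further 5 were higher in cortex, led by the extracellular protease Mmp9 (-2.11, above background in 14 of 24 hippocampi) and by Scg5 (-0.52), a chaperone of a prohormone convertase. Signalling adaptors were split 7 to 5 out of 19, with Gab1 (0.45) and Maged1 (0.38) higher in hippocampus and Shc3 (-0.57) and Frs3 (-0.37) higher in cortex. Of 10 transcriptional regulators, Rest (0.22) and the CREB co-activator Crtc1 (0.15) were higher in hippocampus, and Npas4 (-2.07, above background in 10 of 24 hippocampi) and Bhlhe40 (-0.36) were higher in cortex. Activity-induced genes leaned to cortex: 7 of 10 were higher there, led by Egr2 (-1.43) and Fos (-1.42), the phosphatase gene Dusp6 (0.41) was higher in hippocampus, and the median was -0.53.

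**Figure D4:**
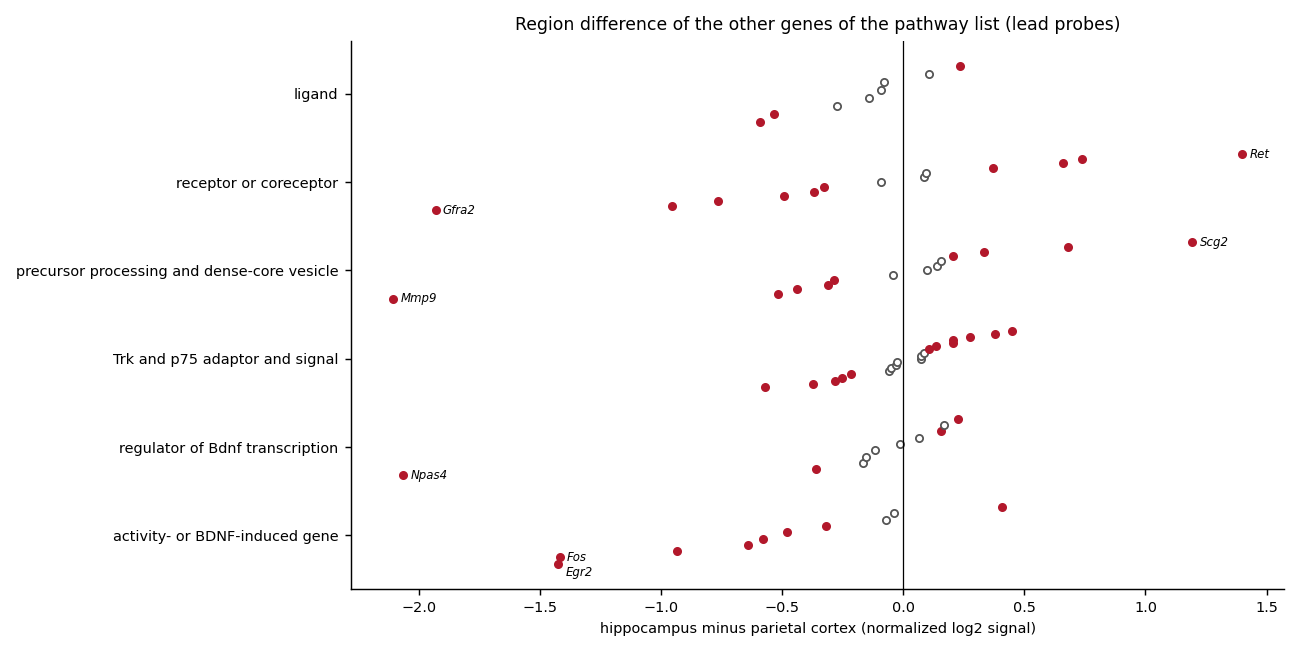
Hippocampus minus parietal cortex in normalized log2 units (x axis) for 73 genes of the wider pathway by role (y axis), 1 point per gene, filled red where called and open where not. Ret (1.40) and Scg2 (1.19) lie farthest to the hippocampal side and Mmp9 and Npas4 to the cortical side (above background in only 14 and 10 of 24 hippocampi, so that their sizes are not exact), and 7 of the 10 activity-induced genes lie below 0 as called points.

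The effect of stimulation 48 h later was addressed by iTBS against sham within young, aged, AU and AI animals, in each region. None of the 8 genes was called in any of these 8 comparisons. In hippocampus 0% of 32503 probes were called in young, aged, AU and AI animals alike, and in cortex 0% of 32613 probes in young, aged and AU animals and 0.00613% in AI animals (2 probes). At an unadjusted p under 0.05, limma gave 2 of the 8 genes in young hippocampus (Ntf3 and Vgf), 2 in AU cortex (Ntrk2 and Vgf), 1 in AI cortex (Gdnf) and 0 in the other 5 comparisons. Over all probes, that threshold took 1467 in young hippocampus (4.51%), 806 in aged, 743 in AU and 633 in AI hippocampus, and 882, 953, 2732 and 1333 in young, aged, AU and AI cortex. The median difference of the 8 genes lay between -0.05 (young hippocampus) and 0.04 (AI hippocampus) in hippocampus, and between -0.11 (AU) and 0.05 (young) in cortex. With these numbers of animals the narrowest 95% interval of a gene reached 0.248 to either side of its value in young hippocampus and the widest 0.618, and in young cortex 0.308 and 1.15.

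Bdnf in young hippocampus read 3.33, 3.43, 3.39 and 3.40 in Y_Sham and 3.70, 2.64, 3.12 and 3.39 in Y_iTBS. Both the highest and the lowest value belonged to stimulated animals, and the difference was -0.18 (95% interval -0.72 to 0.36). In aged hippocampus Bdnf read 3.55, 3.45, 4.03 and 2.26 in AU_Sham, 3.20, 3.30, 3.44, 3.48 and 3.31 in AU_iTBS, 3.09, 3.41, 2.76 and 3.15 in AI_Sham, and 3.15, 3.26 and 2.97 in AI_iTBS. The stimulated animals lay inside the range of the sham animals in both aged groups, with a Bdnf difference of 0.02 over all aged animals (95% interval -0.36 to 0.41).

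Bdnf in young cortex read 2.28, 2.21, 2.22 and 2.22 in Y_Sham and 2.51, 1.34, 2.04 and 2.19 in Y_iTBS, a difference of -0.21 (95% interval -0.67 to 0.25). Y_iTBS 2 was the lowest Bdnf sample of its group in both regions. In aged cortex Bdnf read 2.36, 2.07, 1.95 and 2.38 in AU_Sham, 2.28, 2.35, 2.54, 1.77 and 1.97 in AU_iTBS, 2.64, 2.03, 1.87 and 1.74 in AI_Sham, and 2.18, 1.87 and 2.24 in AI_iTBS. The groups overlapped, and the Bdnf difference in aged cortex was 0.01 (95% interval -0.32 to 0.34).

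Ntf3 in young hippocampus read 3.06, 3.56, 2.99 and 2.67 in Y_Sham and 3.05, 2.24, 1.83 and 2.58 in Y_iTBS. All but the first of the stimulated animals lay below the sham animals, and the difference was -0.64 ± 0.30 (SE, unadjusted p = 0.0418, adjusted p = 0.931, limma). In young cortex Ntf3 read -1.35, -1.42, -2.20 and -1.54 in Y_Sham and -1.09, 0.09, -1.43 and -1.23 in Y_iTBS. There all stimulated animals but Y_iTBS 3 lay above the sham animals, with a Ntf3 difference of 0.71 (95% interval -0.09 to 1.52). In aged animals Ntf3 differed by 0.04 in hippocampus (95% interval -0.40 to 0.48) and by 0.43 in cortex (95% interval -0.14 to 1.01).

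Taking hippocampus minus cortex within each animal, iTBS against sham gave -0.71 ± 0.22 (SE) for Ntf3 (unadjusted p = 0.00446, adjusted p = 0.999, limma). Ntf3 was the only one of the 8 genes at an unadjusted p under 0.05 in that comparison; 0 were called, as were 0% of 33770 probes, and 903 probes (2.67%) had an unadjusted p under 0.05.

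Vgf in young hippocampus read 7.52, 7.49, 8.03 and 7.97 in Y_Sham and 7.83, 8.07, 8.28 and 8.23 in Y_iTBS. The groups overlapped, with a difference of 0.35 (unadjusted p = 0.0448, adjusted p = 0.931, limma). In AU cortex Vgf read 8.58, 8.60, 8.99 and 8.43 in AU_Sham and 8.24, 8.06, 8.25, 8.27 and 8.38 in AU_iTBS. Here the groups did not overlap, the difference was -0.41 ± 0.16 (SE, unadjusted p = 0.0199, adjusted p = 0.578, limma), and the mean of both Vgf probes differed by -0.08.

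In the same AU cortices the representative Ntrk2 probe read 8.34, 8.07, 8.31 and 8.00 in sham and 7.79, 7.76, 7.66, 7.82 and 8.10 in stimulated animals. AU_iTBS 5 alone reached the sham range, and Ntrk2 differed by -0.36 (unadjusted p = 0.0191, adjusted p = 0.578, limma). The Ntrk3 probe of NM_019248 read 5.44, 5.50, 5.58 and 5.36 in sham and 5.20, 5.28, 5.24, 5.03 and 5.23 in stimulated animals, without overlap, a difference of -0.27 (unadjusted p = 0.0151, adjusted p = 0.578, limma). In this comparison meningeal and fibroblast markers had a median difference of -1.18, with 5 of 8 at an unadjusted p under 0.05 and 0 called, and their summed level ran from 6.30 to 8.62 in AU_Sham and from 4.35 to 8.11 in AU_iTBS. Astrocyte markers had a median difference of -0.31 there, with 2 of 10 under that unadjusted threshold, and endothelial and mural markers of -0.21, with 1 of 8, against 0.04 over all probes. The part of these markers in the values of Vgf, Ntrk2 and Ntrk3 was not tested. The first cortex arrays of AU_Sham 1 and of AU_iTBS 1, 2 and 3 were scanned on a different day from those of the other AU animals. Scan day and stimulation were thus not balanced in this comparison.

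The Ntrk2 probe of XM_006253507 in young hippocampus read -1.44, -1.55, -0.93 and -0.63 in Y_Sham and -0.32, -0.11, 0.02 and -0.30 in Y_iTBS. The groups did not overlap, and the difference was 0.96 ± 0.37 (SE, unadjusted p = 0.0169, adjusted p = 0.931, limma). The other 4 Ntrk2 probes were above an unadjusted p of 0.05 in this comparison.

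Gdnf in AI cortex read -3.19, -2.89, -0.40 and -0.53 in AI_Sham and -3.79, -2.80 and -3.09 in AI_iTBS. None of the AI_iTBS cortices was well above background and 2 of the AI_Sham cortices were, so the Gdnf difference (unadjusted p = 0.023, not called, limma) rested on AI_Sham 3 and AI_Sham 4.

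Whether iTBS acted differently in aged and young animals was tested directly. None of the 8 genes was called in either region, with 0% of probes called in hippocampus and 0% in cortex (1395 and 1048 probes at an unadjusted p under 0.05, limma). In hippocampus Vgf differed by -0.42 between aged and young responses (unadjusted p = 0.0467, adjusted p = 0.801), and in cortex no gene of the 8 was under that unadjusted threshold. For Bdnf the difference between responses was 0.20 in hippocampus (95% interval -0.47 to 0.86) and 0.22 in cortex (95% interval -0.35 to 0.79).

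**Figure D5:**
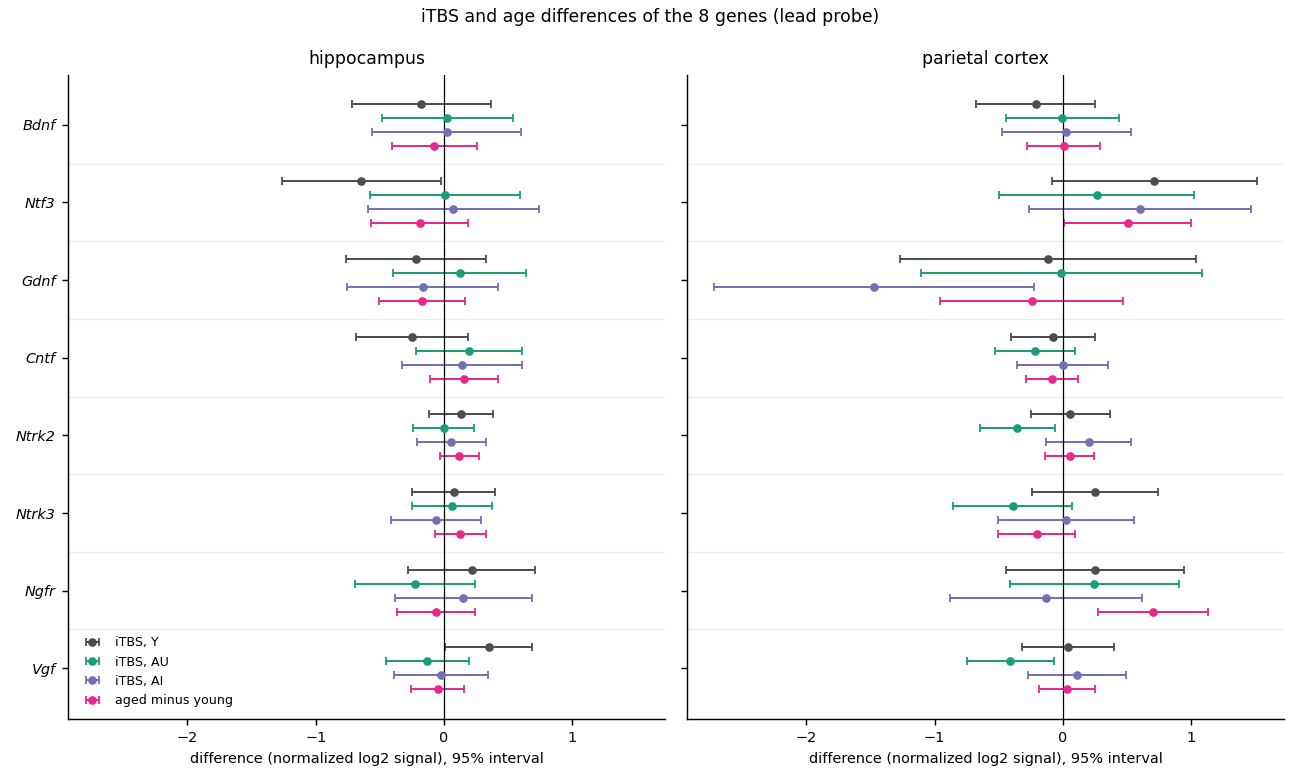
Differences in normalized log2 units (x axis), with 95% intervals, for the representative probe of the 8 genes (y axis). Hippocampus is on the left and parietal cortex on the right. Shown are iTBS minus sham in young, AU and AI animals, and aged minus young over all animals. The intervals of Ntf3 and Vgf in young hippocampus, of Ntrk2 and Vgf in AU cortex and of Gdnf in AI cortex leave out 0. So do those of Ngfr and Ntf3 for aged minus young in cortex, and the others cover 0. No gene was called.

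Age was compared in sham animals and in all animals. In hippocampus 0 of the 8 genes, by their representative probes, were called or had an unadjusted p under 0.05 in either comparison (limma). Of all probes 0.00308% were called in sham animals and 0.511% over all animals. None of the 15 tested probes of the 8 genes was called in either comparison. The other Vgf probe had a mean of 0.79 in the young and 0.38 in the aged hippocampi, over sham and iTBS animals. The age difference in hippocampus over all animals was -0.08 for Bdnf (95% interval -0.41 to 0.26), 0.12 for Ntrk2 (95% interval -0.03 to 0.27) and 0.13 for Ntrk3 (95% interval -0.07 to 0.33). In the same comparison 3 of 8 microglial markers were called higher in aged hippocampus: Cd68 by 0.78, Trem2 by 0.49 and Itgam by 0.49.

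In cortex 0 of the 8 genes were called for age, against 0.104% of probes in sham animals and 0.402% over all animals. Ngfr and Ntf3 had an unadjusted p under 0.05 over all animals, and Ngfr in sham animals. Ngfr in young cortex read -1.29, -1.61, -1.46 and -1.39 in Y_Sham and -1.61, -0.68, -1.04 and -1.41 in Y_iTBS. In aged cortex it read -1.49, -0.76, -0.07 and -1.16 in AU_Sham, -1.50, -0.56, -0.24, -0.41 and -0.42 in AU_iTBS, -0.52, -1.26, -0.02 and 0.19 in AI_Sham, and -0.21, -1.07 and -0.32 in AI_iTBS. All aged cortices but those of AU_Sham 1 and AU_iTBS 1 lay above the young median, although the groups overlapped, with a median of -0.47 in 16 aged and -1.40 in 8 young animals. The Ngfr age difference was 0.70 ± 0.21 (SE; 95% interval 0.28 to 1.13, unadjusted p = 0.00261, adjusted p = 0.168, limma) over all animals and 0.80 in sham animals (adjusted p = 0.433), and it was 0.34 with normexp background correction.

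For Ntf3 the age difference in cortex was 0.50 (unadjusted p = 0.0459, adjusted p = 0.344, limma). It was 0.28 within the largest scan batch and 1.01 within the later scan days. The Ntrk2 probe of NM_012731 that differed by 0.78 between regions read 5.60, 5.61, 5.36 and 5.08 in Y_Sham cortex, 6.37, 6.15, 6.11 and 5.88 in AU_Sham cortex and 6.17, 5.85, 5.47 and 5.36 in AI_Sham cortex. The AU_Sham animals lay above all Y_Sham animals and the AI_Sham animals overlapped them, and the age difference of this Ntrk2 probe in sham cortex was 0.51 (unadjusted p = 0.0083, not called, limma). The other NM_012731 probe did not show this, with means of 7.98 in Y_Sham, 8.07 in AU_Sham and 7.88 in AI_Sham cortex.

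AI_Sham against AU_Sham, the comparison of cognitive status, gave 0 of 8 genes called in hippocampus (0% of probes) and 0 of 8 in cortex (0% of probes), with 1315 and 2099 probes at an unadjusted p under 0.05 (limma). Bdnf was -0.22 in hippocampus (95% interval -0.76 to 0.32) and -0.12 in cortex (95% interval -0.58 to 0.34). Gdnf in cortex had an unadjusted p of 0.0284 with none of the AU_Sham cortices well above background, and its difference of 1.31 was 0.86 without AI_Sham 3 and 0.90 without AI_Sham 4.

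Whether the region difference itself changed with age was tested on hippocampus minus cortex within each animal. None of the 8 genes was called, against 0.0237% of probes (8 probes). Ngfr had the smallest p of the 8: aged minus young was -0.77 ± 0.20 (SE), the hippocampal excess being smaller in aged animals (unadjusted p = 0.00122, adjusted p = 0.298, limma). For Ntf3 the value was -0.69 (unadjusted p = 0.00794), with -1.25 over the later scan days. The second NM_012731 probe of Ntrk2 gave -0.47 ± 0.12 (SE, unadjusted p = 0.0008, limma). The other NM_012731 probe ran the opposite way. Its mean region difference was -1.03 in Y_Sham and -1.03 in Y_iTBS. In aged animals it was -0.89 in AU_Sham, -0.59 in AU_iTBS, -0.69 in AI_Sham and -0.87 in AI_iTBS. Of all probes 15.9% had an unadjusted p under 0.05 here.

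No gene of the wider pathway was called in any of the 18 comparisons other than that between regions. At an unadjusted p under 0.05 in young hippocampus there were 0 of 74 pathway genes, with Sh2b1 (-0.27) and Maged1 (-0.25) among those of smallest p. In young cortex there were 2 of 75. Of the 3 genes of smallest p, Bex1 and Mef2d turned on Y_Sham 4. Bex1 read 0.41 there and 7.79 to 7.95 in the other Y_Sham cortices, and its difference of 1.97 was 0.11 without that animal. Likewise Mef2d differed by 0.72 with Y_Sham 4 and by 0.21 without it. Ntf4 was well above background in 3 of 4 Y_Sham cortices and in no Y_iTBS cortex, so no size is given for it. In aged hippocampus there was 1, and Chga (-0.18), Ret (0.18) and Pspn (-0.27) came first. In aged cortex there were 0, and Sorcs2 (-0.28), Rest (-0.19) and Nr4a1 (-0.48) came first. For age over all animals there were 10 in each region, 13.5% of those tested in hippocampus against 13.3% of all probes, and 13.3% in cortex against 14.3%. Of these, Ptpn11 (0.22), Il6st (0.28) and Nptx2 (-0.26) had the smallest p in hippocampus, and Mmp9 (0.69), Sorcs1 (-0.34) and Ptn (-0.26) in cortex.

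Bdnf was set against 3 activity-induced genes across the 24 animals in each region, which made 6 relations, tested by permutation (100000 resamples, two-sided) with Benjamini-Hochberg adjustment over the 6. In cortex Bdnf and Nptx2, which encodes a synaptic pentraxin, gave Pearson's r = 0.539 (adjusted p = 0.043) and Spearman's rho = 0.495 (adjusted p = 0.0434), and r = 0.570 without the 2 animals farthest from the median of Bdnf. This relation did not hold within scan days: r was 0.287 with the scan batch means removed (adjusted p = 0.326) and 0.079 within the largest batch. In hippocampus Bdnf and Nptx2 gave r = 0.460 (adjusted p = 0.0756) and rho = 0.513 (adjusted p = 0.0434), with r = 0.504 after removing batch means (adjusted p = 0.0407). It was 0.615 within the largest batch (adjusted p = 0.0595) and 0.387 without the 2 animals farthest from the median, neither past the threshold, and scaling to the 75th percentile gave r = 0.363 (adjusted p = 0.161) and rho = 0.371 (adjusted p = 0.222), so that the call by rank was lost. Bdnf and Arc gave r = 0.412 in cortex (adjusted p = 0.0925) and -0.277 in hippocampus, and Bdnf and Vgf gave -0.181 in hippocampus and -0.216 in cortex, none of them past the threshold.

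The genes whose pattern over the 24 animals was most like each of the 8 were ranked by the smaller of the Pearson correlations in the 2 regions, after removing scan batch means, over 11060 genes. This is a description over animals that share slides and scan days. Bdnf was most like Acsl4 (0.700), Gpr61 (0.670) and Mal2 (0.640), Ntf3 like Aldh3b1 (0.582), Il6r (0.565) and Cabp7 (0.549), and Cntf like Cep63 (0.744), Wnk1 (0.736) and Acsl1 (0.722). For the receptors, Ntrk2 was most like Psme1 (0.776), Acsbg1 (0.769) and Scamp2 (0.743), Ntrk3 like Rev3l (0.858), Cpsf6 (0.836) and Phkb (0.807), and Ngfr like Acy3 (0.580), Klhdc9 (0.574) and Cmtm7 (0.572). Vgf was most like Sst (0.618), Snurf (0.611) and Stx1a (0.603). Gdnf, ranked in hippocampus alone over 11641 genes, was most like Krr1 (0.800), Adam19 (0.770) and Zfp518a (0.759).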

How the data were processed

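RNA from each region was Cy3-labelled and hybridized to one-colour Agilent rat arrays. The deposited scanner files hold, per the file headers, spot intensity values from Feature Extraction 12.0.3.1 (named in the submitters' processing notes), background-subtracted and not normalized between arrays. The authors also deposited a table of score values, which they made by z-score transformation of the log signals within each array. These scores matched scores computed here from the intensities within 0.005. There were 48 first arrays, 7 repeats and 1 array whose labels disagree on its group, which was left unassigned. Of 62976 features, 58717 were non-control, giving 45598 probes, of which 21109 (46.3%) had 1 RefSeq symbol.

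Here, spots marked as outliers (267 to 1448 per array) were dropped, copies of a probe were averaged, and log2 intensities were z-scored within each array and multiplied by the mean array SD (4.08). Repeats of 1 RNA counted as 1 replicate. Probes well above background in at least 3 animals were kept (32503 in hippocampus, 32613 in cortex, 33770 between regions). Group means were fitted per region with limma 3.58.1 in R 4.3.3, region comparisons on within-animal differences, each with Benjamini-Hochberg adjustment at 0.05 over all probes. Relations used Python 3.11.15 and SciPy 1.17.1. The fits were tested on simulated data. p-values measure the spread between animals, and the number of arrays limits the precision.

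Replicate numbers that groups share were checked for pairing: over 55 same-numbered pairs in each region the median correlation of deviations was 0.0628 in hippocampus and 0.0823 in cortex, so the numbers were not used to pair animals across groups. The regions of 1 animal were paired by the shared label.

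The 8 genes, the pathway list and the marker lists were chosen with earlier results of these data known. The genes named were all 8 with every probe; of the pathway list, in the region comparison the 2 called genes of largest difference in each direction per role, and elsewhere the 3 of smallest p; and the 3 genes most like each of the 8. Exceptions, named after their values were seen, are the microglial and region markers. Ttr, Folr1 and Gfap were also named outside these rules. Alternatives were the scaling, normexp background correction (offset 50), quantile normalization, the filter, the authors' z-scores, arrays and animals left out, scan batch, slide, and probe averaging. The later scan days alone were added after seeing the data. Some genes of the lists count in the totals, but their own values are not reported here. Promoter sequences are from a RefSeq table of build GRCr8.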

Additional observations from a re-analysis of the deposited data

Results flagged for a closer look

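A sample stood apart from the rest of its group, by Dixon's ratio at its 95% critical value, in 4 of 80 combinations of gene, region and group of 4 or 5 animals. Chance gives about 1 in 20 such groups, which is the number seen. In hippocampus the representative Ntrk2 probe read 8.00 in AU_iTBS 1 and 8.15 to 8.20 in the other 4 animals. The representative Ntrk3 probe read 7.08 in Y_Sham 3 in hippocampus and 6.83 to 6.87 in the other 3 animals. In cortex it read 6.56 in AU_Sham 1 and 7.05 to 7.11 in the other 3 animals. Ngfr read -1.50 in the cortex of AU_iTBS 1 and -0.56 to -0.24 in the other 4 animals, which is the lowest aged Ngfr value in cortex.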

How the results depend on the processing

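In the region comparison 4 to 7 of the 8 genes were called over 39 settings. The share of all probes called in each setting is not given here, so nothing is drawn from that range. The directions of Ntf3, Bdnf, Ngfr and Vgf held in all 39 settings, that of Gdnf in the 38 in which it was tested (it was left out where a probe had to be well above background in every animal). Leaving out 1 animal at a time, these 5 stayed called in each of the 24 fits, with values of 3.51 to 3.62 for Ntf3, 1.06 to 1.19 for Bdnf, 1.16 to 1.32 for Gdnf, 0.50 to 0.60 for Ngfr and -0.52 to -0.47 for Vgf. The representative Ntrk2 probe was called with quantile normalization (0.16) and the mean of the Ntrk2 probes with the sign turned (-0.52). Ntrk3 was called with quantile normalization, with normexp, over the later scan days, as the mean of its probes, and without AU_iTBS 4 or AI_Sham 2. Normexp moved the median of all probes to -0.107. In the other 18 comparisons 0 of the 8 genes were called under every setting tried, and a selection rule like that of the study's methods took 0 of them in the 12 comparisons it was run on, where it took 12 to 176 of all probes.

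With the replicate number as a replicate block, 0 of the 8 genes were called in the comparisons within a region. Without the animal as a replicate block, 5 of the 8 were called between regions, as with it, and 45 pathway genes in place of 48. The share of all probes called without that block is not given here, so nothing is drawn from those counts. In that check of pairing 8 animals in hippocampus and 10 in cortex correlated best with their own number, out of 24. The block changed no call of the 8 genes.

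The relation of Bdnf with Nptx2 in cortex was 0.494 with scaling to the 75th percentile, 0.287 with scan batch means removed and 0.079 in the largest batch, and none of these passed the threshold. With batch means removed, Bdnf with Nptx2 in hippocampus (0.504) and with Arc in cortex (0.551) passed it. The cause was not tested. Signal near background limits Gdnf in cortex, and AI_Sham against AU_Sham over the later scan days set 1 animal against 1, so its value there is not given.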

Other observations

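The array whose title names a young sham animal and whose description names an aged stimulated one correlated best with the hippocampus of AU_iTBS 4 (r = 0.955 over 300 probes). It read 3.50 for Bdnf, 2.55 for Ntf3, -1.53 for Gdnf, 2.78 for Cntf, 8.14 for Ntrk2, 6.99 for Ntrk3, 0.06 for Ngfr and 7.92 for Vgf. Each of these values lay within the range of the 24 hippocampi.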
